A study of Mus musculus with 55 samples.

Results

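Hearts of wild-type mice taken 6 h after a gavage of DHA oil (tridocosahexaenoin) were compared with hearts taken 6 h after a gavage of trilinolenin. The members were 9 of the 55 arrays of the series, chosen by their titles, with 5 WT hearts after DHA oil and 4 after trilinolenin. Each array (Affymetrix, 1 per heart) measured mRNA in whole heart. All mice of both groups were male Sv129 wild types of the substrain 129S1/SvImJ, given as 9 to 12 weeks old in one label field and as 2 to 6 months in another. They had eaten a purified diet with olive oil in place of corn oil for 2 weeks, were fasted for 4 h, and received 400 µL of the oil by a single intragastric gavage. Each oil carries a single fatty acid on all positions of the glycerol, docosahexaenoic acid with 22 carbons and 6 double bonds in DHA oil and linolenic acid with 18 carbons and 3 double bonds in trilinolenin. The volume and the time were the same, so the oils form 1 matched pair of compounds in WT mice. Other WT mice, treated in the same way, received trilinolein (5 hearts), triolein (4) or the PPARα agonist Wy14643 suspended in carboxymethyl cellulose (4). The same DHA oil and trilinolenin were given to 10 PPARα-/- mice (KO, 129S4/SvJae), 5 per oil, and the further 20 KO hearts of the other treatments and controls entered the shared fit only. As controls, 3 WT mice received 400 µL of carboxymethyl cellulose, although another field of their labels reads none. The labels do not say that replicates of a group came from separate days or cages, so p-values rest on heart-to-heart spread, which may be partly technical.

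Dietary triglycerides are split in the gut, repackaged and delivered to the heart, where their fatty acids are oxidised, stored in lipid droplets, or bound by nuclear receptors. PPARα, the main such receptor in heart muscle, binds to DNA together with RXR and activates genes for fatty acid uptake, storage and oxidation. Docosahexaenoic acid is a long and highly unsaturated fatty acid that is abundant in membrane phospholipids of the heart, and its oxidation begins in peroxisomes.

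The table named 18193 genes, and the 8237 (45.28%) with a linear signal above 20 on 3 or more of the 55 arrays were tested. The 9 arrays were alike over all probe sets, with pairwise correlations of 0.993 to 0.996 and 29.4% to 30.2% of probe sets above that level. Markers of heart muscle were bright and even, with a mean log2 signal of 13.55 to 13.63 in DHA oil hearts and 13.57 to 13.66 in trilinolenin hearts for 8 genes. Atrial markers varied within both groups, from 9.62 to 11.85 in DHA oil hearts and 9.82 to 11.69 in trilinolenin hearts for 4 genes. None of 7 marker lists passed the threshold between the oils in the exact two-sided permutation test over the 126 splits of the arrays, whose smallest p is 0.0159. With 7 lists 1 list alone could reach an adjusted p of 0.111 at best, so this test could not have called a single cell type. The adjusted p were 0.778 for smooth muscle (difference 0.30, 4 genes) and 0.841 for heart muscle, atrial muscle, endothelium, fibroblasts, pericytes and macrophages (-0.31 to -0.02). No marker of neutrophils, lymphocytes, white adipocytes, skeletal muscle or Schwann cells was bright enough to be tested. In whole tissue, fewer cells of a type and less RNA per cell cannot be told apart. DHA oil replicate 4 had the lowest array weight of the 9 hearts (0.627). It had the lowest signal of the 5 DHA oil hearts for 16 of 35 PPAR target genes (45.7%), against 25.1% of all genes tested. The same held for 12 of 29 NRF2 target genes (41.4%) and 13 of 24 immediate early genes (54.2%). Values without this heart are therefore given where they matter.

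DHA oil hearts differed from trilinolenin hearts in 46 of 8237 genes (0.558%) at an adjusted p under 0.05 (limma, with 1 mean per group of the whole series and Benjamini-Hochberg adjustment over all genes tested). Signals were higher after DHA oil for 24 genes (0.291%) and lower for 22 (0.267%). The differences were small, with a median size of 0.52 on the log2 scale, and 17 of the 46 exceeded 1.5-fold. At an unadjusted p under 0.05, 870 genes differed (10.6%), 421 of them higher (5.11%) and 449 lower (5.45%), where 411.85 would be expected from uniform p-values. The hearts of the 2 groups did not overlap for 39 of the 46 genes, against 280 (3.4%) of all genes tested. Of these 280, 158 had all DHA oil hearts higher (1.92%) and 122 had all lower (1.48%). The 46 genes were chosen by their differences between these same hearts, so their lack of overlap is no separate support for the calls. Among the 46 genes, 24 had a further bright probe set, and all 34 such probe sets had the same sign as the one tested.

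The calls lean on a spread estimated from all 55 arrays. In a limma fit of the 9 arrays alone 0 genes were called, with a lowest adjusted p of 0.145 and 807 genes at an unadjusted p under 0.05. Leaving out single hearts left 27 calls without DHA oil replicate 2, 16 without replicate 4 and 23 without replicate 5, and 19 calls without trilinolenin replicate 3 and 13 without replicate 4. A fit of the 25 WT arrays gave 34 calls, 23 higher and 11 lower, of which 23 were among the 46. Of the genes described here, it ended the calls of Plin2, Ehhadh, Etfbkmt, Slc16a9, Tspyl4, Enox2, B4galt6, Rab30, Pacs2, Tmem144, Jmjd6, Dpm1 and Smim19. Without a filter on dim genes those of Plin2, Slc16a9, Enox2, B4galt6, Jmjd6, Dnajb4 and Smim19 were lost. The mean of all probe sets ended the calls of Tspyl4, B4galt6, Jmjd6, Dpm1 and Fnip1. With array weights those of Enox2, Jmjd6, Vegfa and Smim19 were lost, and after a second quantile normalization that of B4galt6. Of the 46 genes, 8 kept their call in all 18 alternative settings other than the fit of 9 arrays (Frmd5, Pfkfb2, Dnajb5, Ppp1r3c, Perm1, Hsd17b11, Gpam and Mtus1), and 0 changed sign in any.

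Among the called genes lower after DHA oil were Hsd17b11, Plin2 and Gpam, which act in lipid storage and synthesis. Of 25 tested genes for uptake of fatty acids and for lipid droplets 0 were called higher and 2 lower, and of 22 genes of glycerolipid and phospholipid synthesis 0 were called higher and 1 lower. Of all genes tested, 0.291% were called higher and 0.267% lower. Counting every member, 17 of the 25 lay below 0 and 8 above, with a median of -0.08. Of the 22, 10 lay below 0 and 12 above, with a median of 0.03. Over all genes tested, 4176 of 8237 lay below 0. Hsd17b11, a dehydrogenase that sits on lipid droplets, had log2 signals of 9.10, 8.70, 9.08, 8.32 and 9.05 in DHA oil hearts, against 9.37, 9.34, 9.60 and 9.57 in trilinolenin hearts. Every DHA oil heart lay below every trilinolenin heart, and the controls, at 8.90, 8.98 and 8.68, lay among the DHA oil hearts. The difference was -0.62 ± 0.11 (SE, limma, adjusted p = 0.000681), a 1.54-fold lower signal, and the second bright probe set gave -0.77. Gpam, the mitochondrial acyltransferase that opens glycerolipid synthesis, had 11.20, 10.98, 11.06, 10.65 and 10.93 in DHA oil hearts, against 11.31, 11.40, 11.53 and 11.32 in trilinolenin hearts. These groups did not overlap either, and the difference was -0.43 ± 0.08 (adjusted p = 0.000973), with -0.61 for its other probe set. Plin2, the coat protein of lipid droplets, had 9.06, 8.40, 8.84, 8.33 and 9.21 in DHA oil hearts, against 9.03, 9.22, 9.45 and 9.42 in trilinolenin hearts. For Plin2 2 DHA oil hearts reached into the range of trilinolenin, and the difference was -0.52 ± 0.13 (adjusted p = 0.0354). This call was lost without trilinolenin replicate 2, 3 or 4 or DHA oil replicate 2 or 4. Over all left-out hearts the difference of Plin2 ranged from -0.63 to -0.41 with adjusted p up to 0.196.

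The enzymes Ehhadh and Etfbkmt and the transporter Slc16a9 were also lower after DHA oil. Ehhadh, the bifunctional enzyme of peroxisomal β-oxidation, had 5.03, 4.93, 5.15, 4.34 and 5.22 in DHA oil hearts, against 5.38, 5.61, 6.02 and 5.63 in trilinolenin hearts, a difference of -0.73 ± 0.17 (limma, adjusted p = 0.0255). Its groups did not overlap, the control hearts (5.38, 5.42 and 5.13) lay between the 2 oil means, and the call was lost without trilinolenin replicate 2, 3 or 4 or DHA oil replicate 2 or 4 (-0.82 to -0.58, adjusted p up to 0.196). Etfbkmt, which methylates the β subunit of the electron transfer flavoprotein, had 8.85, 8.44, 9.19, 8.68 and 9.15 in DHA oil hearts, against 9.30, 9.41, 9.37 and 9.27 in trilinolenin hearts, with controls at 8.35, 8.29 and 8.38. All hearts of both oils lay above the controls for Etfbkmt, and the DHA oil hearts lay below the trilinolenin hearts (difference -0.47 ± 0.11, adjusted p = 0.0255). Without trilinolenin replicate 2, 3 or 4 or DHA oil replicate 2 or 4 the Etfbkmt call was lost (-0.56 to -0.37, adjusted p up to 0.137). Slc16a9, of the monocarboxylate transporter family, differed by -0.61 ± 0.15 (adjusted p = 0.0281), with a DHA oil mean of 4.28 that lay below the brightness minimum of 4.32 and a trilinolenin mean of 4.90. The call for Slc16a9 was lost without trilinolenin replicate 1, 2 or 3 or DHA oil replicate 2, 3 or 4 (adjusted p up to 0.196).

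Mtus1, a microtubule-associated protein that interacts with the angiotensin type 2 receptor, is named because its call was among the 8 that held most widely, a choice made after its values were seen. Mtus1 had 10.24, 10.08, 10.12, 9.95 and 10.01 in DHA oil hearts, against 10.47, 10.41, 10.61 and 10.46 in trilinolenin hearts, a difference of -0.41 ± 0.07 (limma, adjusted p = 0.000973). Tmem41a, a membrane protein of the endoplasmic reticulum, had 7.10, 6.70, 7.20, 6.46 and 6.76 in DHA oil hearts, against 7.39, 7.55, 7.57 and 7.31 in trilinolenin hearts. For Tmem41a the groups did not overlap, and the difference of -0.61 ± 0.13 (adjusted p = 0.0112) missed the threshold without trilinolenin replicate 3 or DHA oil replicate 4 (adjusted p up to 0.0687). The further falls were Tspyl4 (-0.65 ± 0.15), Ttc30b (-0.51 ± 0.12), a component of intraflagellar transport, Enox2 (-0.48 ± 0.11) and B4galt6 (-0.47 ± 0.12), which makes lactosylceramide. Their adjusted p were 0.0196 to 0.0355, and each lost its call without DHA oil replicate 2 or 4 or trilinolenin replicate 3, and without 1 to 5 further hearts left out in turn (adjusted p up to 0.215). Enox2 was dim, with means of 4.13 in DHA oil hearts and 4.61 in trilinolenin hearts.

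**Figure D1:**
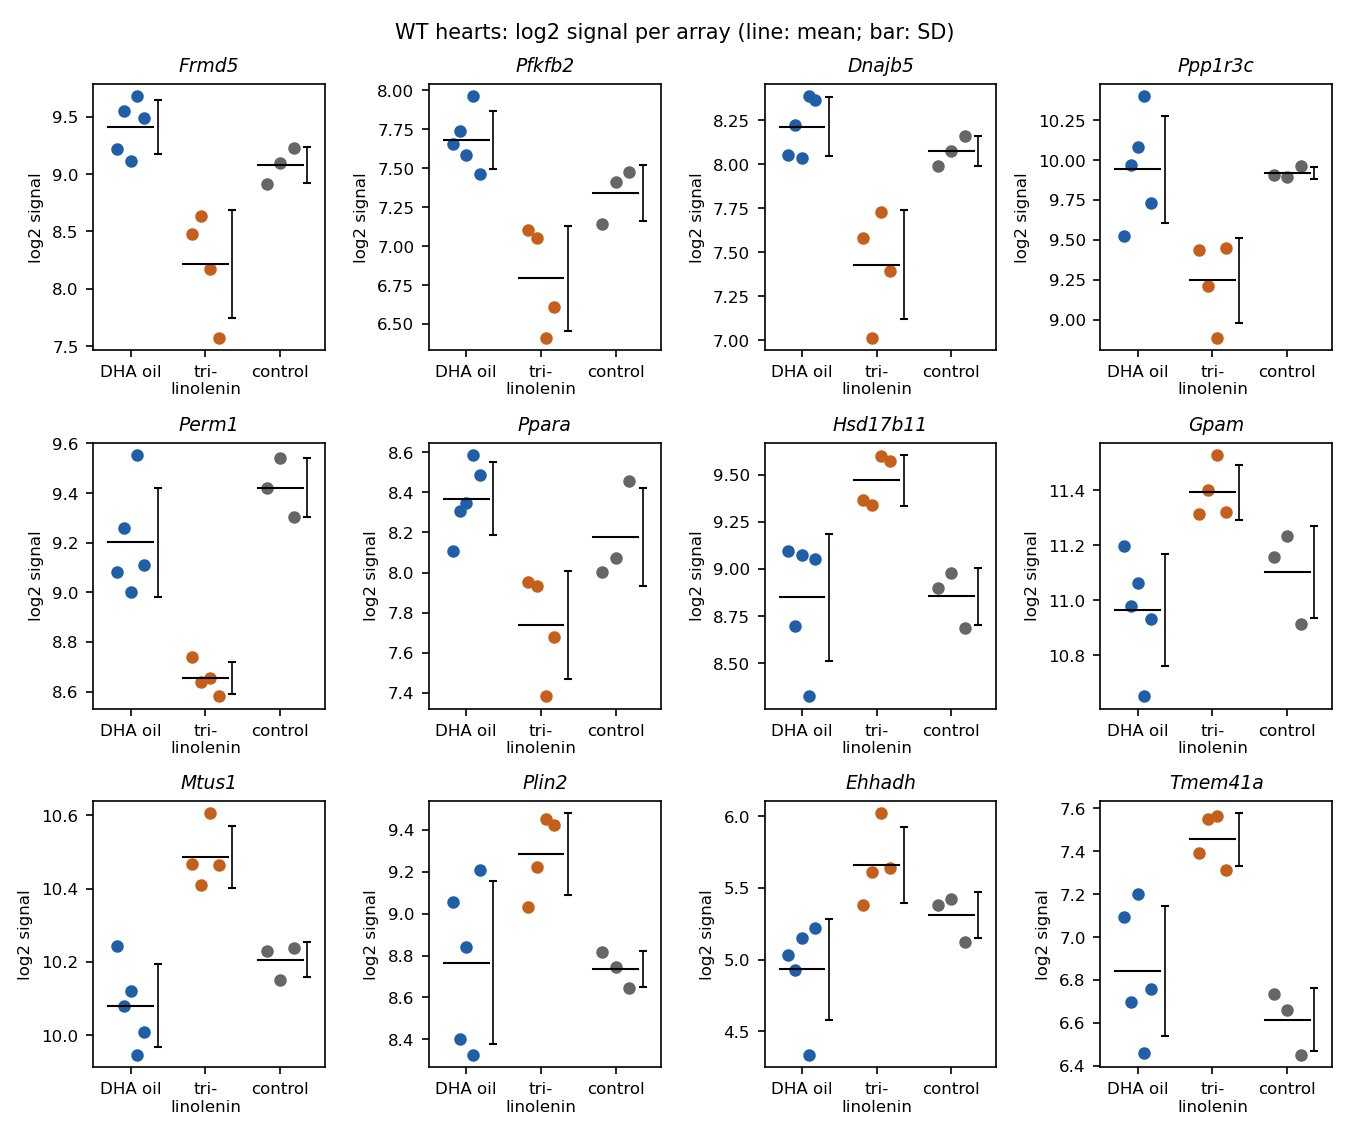
Log2 signal of 12 called genes (vertical axis) on each WT array after DHA oil, after trilinolenin and in controls (horizontal axis). Points are hearts, lines are group means and bars are SDs. The DHA oil hearts lie above the trilinolenin hearts for the first 6 genes and below them for the last 6, except for Plin2, where both groups overlap.

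Called genes higher after DHA oil included Pfkfb2 and Ppp1r3c, of carbohydrate handling, and Perm1 and Ppara, of the muscle energy programme. Of 30 tested genes of glucose metabolism 1 was called higher and 0 lower, with 3 higher and 2 lower at an unadjusted p under 0.05. Over all genes tested, 5.11% were higher and 5.45% lower at that level. Pfkfb2, the heart form of the bifunctional enzyme that makes the glycolysis activator fructose 2,6-bisphosphate, had log2 signals of 7.66, 7.74, 7.58, 7.96 and 7.46 in DHA oil hearts, against 7.10, 7.05, 6.41 and 6.61 in trilinolenin hearts. The groups did not overlap, the controls (7.14, 7.41 and 7.47) lay between their means, and the difference was 0.89 ± 0.15 (limma, adjusted p = 0.000681), or 1.85-fold. Its other 2 bright probe sets gave 1.06 and 1.05. Ppp1r3c, which brings protein phosphatase 1 to glycogen, had 9.52, 9.97, 10.08, 10.40 and 9.73 in DHA oil hearts, against 9.44, 9.21, 8.88 and 9.45 in trilinolenin hearts. The lowest DHA oil heart stood just above the highest trilinolenin heart, and the difference was 0.70 ± 0.13 (adjusted p = 0.00247), with a DHA oil mean of 9.94 close to the control mean of 9.92.

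Perm1, a muscle regulator induced by PGC-1 and ERR, had 9.08, 9.26, 9.00, 9.55 and 9.11 in DHA oil hearts, against 8.74, 8.64, 8.65 and 8.58 in trilinolenin hearts. The groups stood well apart, and the means of both (9.20 after DHA oil and 8.65 after trilinolenin) lay below the control mean of 9.42. The difference for Perm1 was 0.55 ± 0.09 (limma, adjusted p = 0.000681). Ppara, which encodes PPARα itself, had 8.11, 8.31, 8.35, 8.59 and 8.49 in DHA oil hearts, against 7.95, 7.93, 7.38 and 7.68 in trilinolenin hearts. Its groups did not overlap, and the difference was 0.63 ± 0.12 (adjusted p = 0.00253), with 0.42 and 0.39 for its other 2 bright probe sets. Without trilinolenin replicate 3 the adjusted p of Ppara was 0.056. Ppara was the called gene among 17 tested nuclear receptors and coactivators, of which 3 were higher and 0 lower at an unadjusted p under 0.05. The shares over all genes tested were 5.11% higher and 5.45% lower.

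Frmd5, Dnajb5 and Tnfrsf12a were also higher after DHA oil. Frmd5, a FERM domain protein of the cell membrane, had 9.22, 9.55, 9.11, 9.68 and 9.49 in DHA oil hearts, against 8.48, 8.63, 8.17 and 7.57 in trilinolenin hearts, a difference of 1.20 ± 0.20 (limma, adjusted p = 0.000681), or 2.29-fold. Dnajb5, a co-chaperone of the Hsp40 family, had 8.05, 8.22, 8.04, 8.39 and 8.37 in DHA oil hearts, against 7.58, 7.01, 7.73 and 7.39 in trilinolenin hearts, a difference of 0.78 ± 0.13 (adjusted p = 0.000681). Neither gene had overlapping groups, and the control means of Frmd5 and Dnajb5 (9.08 and 8.07) stood nearer to DHA oil. Tnfrsf12a, the receptor for the cytokine TWEAK, had 7.60, 7.52, 6.73, 7.13 and 7.83 in DHA oil hearts, against 6.01, 5.52, 6.5 and 6.25 in trilinolenin hearts, with controls at 7.26, 7.49 and 7.42. Its difference of 1.29 ± 0.30 was the largest rise among the called genes (adjusted p = 0.0255) and lost its call without any of 7 hearts (1.11 to 1.45, adjusted p up to 0.106), which were trilinolenin replicates 1, 2 and 4 and DHA oil replicates 1, 2, 4 and 5. For Tnfrsf12a the DHA oil mean was 7.36, against 7.39 in controls, and the trilinolenin hearts were the low ones.

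Among the remaining named rises, Ppfia1, a scaffold of focal adhesions, differed by 1.06 ± 0.20 (limma, adjusted p = 0.00247, and 0.0521 without trilinolenin replicate 4). Rab30, a small GTPase of the Golgi, differed by 1.00 ± 0.24 (adjusted p = 0.0281), but its trilinolenin mean of 3.46 lay below the brightness minimum, against 4.46 in DHA oil hearts. Pacs2, a sorting protein of contacts between endoplasmic reticulum and mitochondria, differed by 0.68 ± 0.14, Tmem144 by 0.64 ± 0.14 and the nuclear hydroxylase Jmjd6 by 0.61 ± 0.15, with adjusted p of 0.0112 to 0.0427. The groups of all 5 genes did not overlap, and Rab30, Pacs2, Tmem144 and Jmjd6 each lost the call without trilinolenin replicate 3 or 4 or DHA oil replicate 5. Rab30 also lost it without DHA oil replicate 2 or 4, Pacs2 without replicate 2 and Jmjd6 without replicate 1 or 4 (adjusted p up to 0.303). Vegfa, the endothelial growth factor, was higher by 0.52 ± 0.12 (adjusted p = 0.0245), and Dnajb4, another Hsp40 co-chaperone, by 0.32 ± 0.08 (adjusted p = 0.0389), both with overlapping groups. Both calls were lost without trilinolenin replicate 3 or 4 or DHA oil replicate 2, 4 or 5, that of Vegfa also without trilinolenin replicate 2 and that of Dnajb4 without replicate 1 (adjusted p up to 0.191). The other called genes differed by less than Tmem144 in either direction, apart from 1 clone-named gene at -1.03.

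Upstream sequence is shown for Plin2, Gpam and Perm1, as examples of lipid storage, lipid synthesis and muscle regulation. They are among the 9 called genes that hold the half-site bound by nuclear receptors such as PPARα with RXR. Ppara was also looked at, had 0 half-sites and is not shown. Each line is the 250 bases before a start of the gene from RefSeq (GRCm38.p6), 5′ to 3′ on the gene's strand. AGGTCA or its reverse complement TGACCT is in capitals. Where a gene had more than 1 start, the window with the most half-sites was taken. Plin2 lies on the minus strand with its window at chr4:86670060-86670309, Gpam on the minus strand at chr19:55099478-55099727, and Perm1 on the plus strand at chr4:156215677-156215926.
Plin2: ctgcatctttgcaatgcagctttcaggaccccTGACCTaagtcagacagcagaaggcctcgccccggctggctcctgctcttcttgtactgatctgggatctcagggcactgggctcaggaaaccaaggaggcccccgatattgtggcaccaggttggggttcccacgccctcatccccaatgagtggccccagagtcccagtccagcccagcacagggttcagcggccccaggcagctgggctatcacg
Gpam: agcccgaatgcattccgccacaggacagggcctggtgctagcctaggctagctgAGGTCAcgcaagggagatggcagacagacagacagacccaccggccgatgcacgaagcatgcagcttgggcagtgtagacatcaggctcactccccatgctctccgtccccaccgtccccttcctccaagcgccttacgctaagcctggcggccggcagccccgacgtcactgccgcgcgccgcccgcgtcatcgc
Perm1: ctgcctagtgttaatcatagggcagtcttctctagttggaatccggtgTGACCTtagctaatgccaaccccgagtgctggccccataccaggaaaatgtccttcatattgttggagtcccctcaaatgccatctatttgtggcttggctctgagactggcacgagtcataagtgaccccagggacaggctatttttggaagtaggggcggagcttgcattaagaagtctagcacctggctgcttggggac
The half-site began 218 bases before the start in Plin2, 196 in Gpam and 202 in Perm1. The table of promoters matched 37 of the 46 called genes. On either strand, AGGTCA was in a window of 3 of 20 matched genes that were higher after DHA oil and 6 of 17 that were lower. It was in 14.0% of all 32851 windows of this length. A gene counted if any of its windows held the letters, while the share is over single windows. The 2 measures are therefore unlike, and a gene with more than 1 window had more than 1 chance. Direct repeat 1, which is 2 copies of AGGTCA with any 1 base between them, was found on either strand for 0 of the 37 genes and in 0.033% of all windows. The heat shock element GAANNTTC, with any base at N, was found for 0 of 20 higher and 2 of 17 lower genes. It was in 6.69% of all windows. The E-box CACGTG was found for 3 of 20 higher and 1 of 17 lower genes, and in 6.02% of all windows. These are matches of letters in a short window, and occupancy by a receptor was not measured.

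Over the wider pathway, 2 of 35 tested PPAR target genes were called, both lower after DHA oil (Ehhadh and Plin2), against 0.267% of all genes called lower. At an unadjusted p under 0.05, 10 were lower and 0 higher, and 28 of the 35 lay below 0. Over all genes tested, 5.45% were lower and 5.11% higher at that level, and 4176 of 8237 lay below 0. The median difference of the list was -0.08, against -0.0016 for all genes tested, and it lay between -0.13 and -0.035 with single hearts left out. Without DHA oil replicate 4 the median was -0.043. The mean log2 signal over the 35 genes was 10.00, 9.80, 9.91, 9.58 and 9.91 in DHA oil hearts, against 10.00, 10.05, 10.21 and 9.95 in trilinolenin hearts and 9.81, 9.88 and 9.64 in controls. The oil groups overlapped in this mean, and DHA oil replicate 4 was the lowest heart. Of the list, Angptl4, an inhibitor of lipoprotein lipase, had 7.42, 5.80, 6.11, 5.11 and 7.07 in DHA oil hearts, against 7.03, 7.41, 9.05 and 7.57 in trilinolenin hearts. Its difference was -1.46 ± 0.41 and was not called (limma, adjusted p = 0.0829). It passed without DHA oil replicate 1 (adjusted p = 0.0261). Over all left-out hearts it ranged from -1.74 to -1.03, with adjusted p up to 0.443. Ucp3, the muscle uncoupling protein, had 6.73, 5.89, 6.19, 4.85 and 6.93 in DHA oil hearts, against 6.93, 7.26, 7.61 and 7.14 in trilinolenin hearts. The highest DHA oil heart of Ucp3 stood just below the lowest trilinolenin heart, and the difference of -1.12 ± 0.29 stood at the threshold (adjusted p = 0.0501), with a call in 7 of 18 alternatives and a range of -1.32 to -0.80 over left-out hearts. Among the 7 were the fits without DHA oil replicate 1 (adjusted p = 0.0243) and without replicate 5 (adjusted p = 0.0188). The smallest difference of Ucp3, -0.80, was that without DHA oil replicate 4, and over left-out hearts its adjusted p reached 0.241.

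Pdk4, the kinase that shuts pyruvate out of oxidation, had 13.12, 12.53, 12.94, 11.41 and 13.16 in DHA oil hearts, against 13.13, 13.15, 13.45 and 13.20 in trilinolenin hearts. Its difference was -0.60 ± 0.22 (limma, adjusted p = 0.257), and without DHA oil replicate 4 it was -0.30. Acot1, a cytosolic acyl-CoA thioesterase, had -0.75 ± 0.32 (adjusted p = 0.378). Other index genes of fatty acid handling gave narrow intervals around 0. The difference was -0.07 for Cpt2 (95% interval -0.20 to 0.06), 0.01 for Cd36 (-0.10 to 0.13) and -0.03 for Fabp3 (-0.10 to 0.04). These 3 genes serve mitochondrial import, membrane uptake and cytosolic transport of fatty acids, and their hearts overlapped. The lists of mitochondrial fatty acid oxidation (23 genes), oxidative phosphorylation (27) and the tricarboxylic acid cycle (18) had 0 called genes in limma, with 3, 2 and 2 genes at an unadjusted p under 0.05 and medians of -0.03, -0.00091 and 0.0034. Of all genes tested, 10.6% had an unadjusted p under 0.05.

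**Figure D2:**
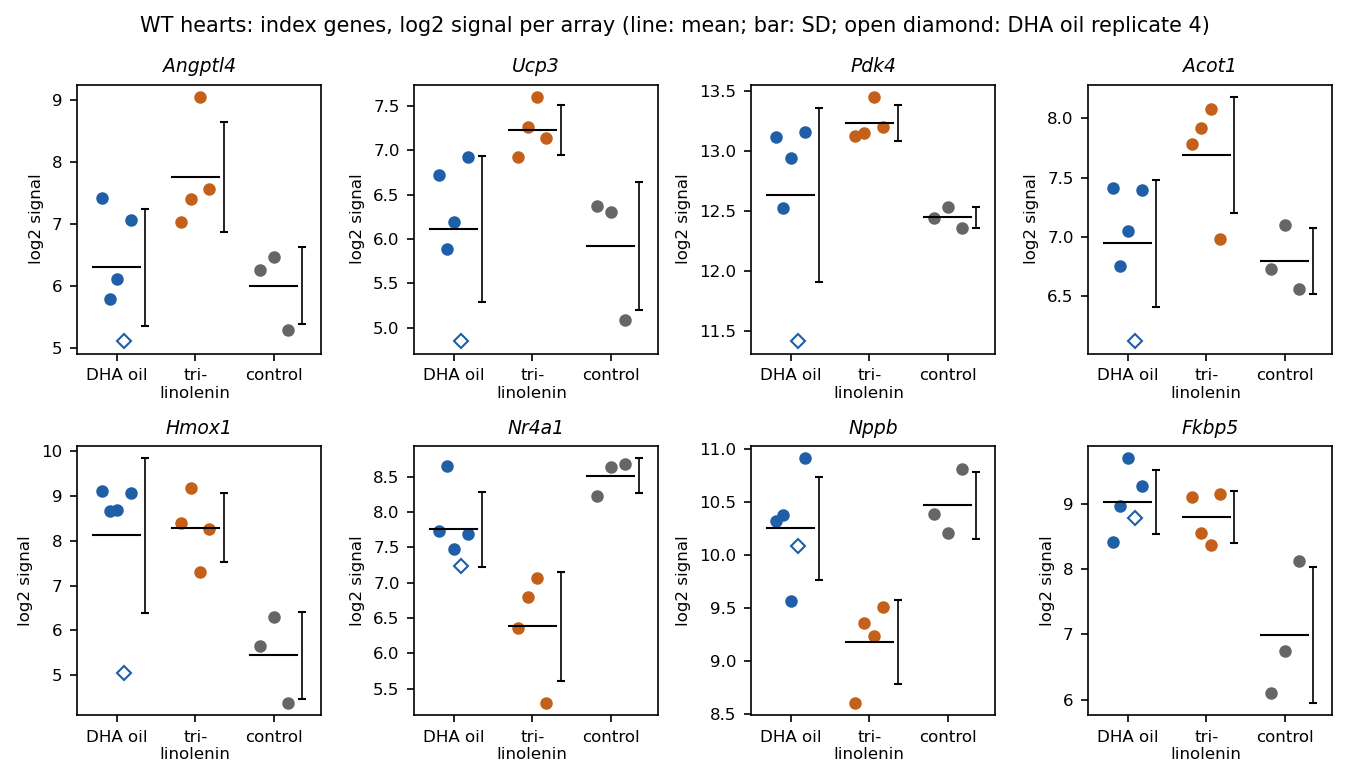
Log2 signal of 8 genes (vertical axis) on each WT array after DHA oil, after trilinolenin and in controls (horizontal axis), with lines for means and bars for SDs. The open diamond is DHA oil replicate 4, the lowest of the 5 DHA oil hearts for Angptl4, Ucp3, Pdk4, Acot1, Hmox1 and Nr4a1.

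Hmox1, Fkbp5, Mt2 and Fgf16, genes of stress, hormone and growth responses, were not called between the oils. Hmox1, the stress-induced haem oxygenase, had 9.11, 8.67, 8.68, 5.06 and 9.08 in DHA oil hearts, against 8.39, 9.18, 7.31 and 8.27 in trilinolenin hearts and 5.66, 6.29 and 4.39 in controls. The difference between the oils was -0.17 with a wide 95% interval of -1.37 to 1.03, and without DHA oil replicate 4 it was 0.60. Fkbp5, a glucocorticoid-responsive co-chaperone, differed by 0.23 (-0.52 to 0.98), Mt2, a metallothionein, by -0.24 (-0.88 to 0.40), and Fgf16, a heart growth factor, by -0.09 (-0.70 to 0.53). For all 4 genes the hearts of the 2 oils overlapped, and a p that misses the threshold does not show that the oils acted alike. Leaving out single hearts moved the difference of Fkbp5 over 0.06 (without DHA oil replicate 3) to 0.38 (without replicate 1), that of Mt2 over -0.44 (without replicate 3) to -0.04 (without replicate 4), and that of Fgf16 over -0.34 (without replicate 4) to 0.12 (without replicate 5). Among 29 NRF2 target genes 0 were called by limma, with 5 lower and 0 higher at an unadjusted p under 0.05 and a median of -0.06, which was -0.0073 without DHA oil replicate 4. Among 23 glucocorticoid responsive genes 0 were called, with 1 higher and 1 lower at that level and a median of 0.14, and among 24 FoxO and atrophy genes 0 were called, with 1 higher and 3 lower and a median of -0.12, which was -0.02 without DHA oil replicate 4. The glucocorticoid median lay between 0.08 and 0.22 with single hearts left out. Beside these lists, 5.11% of all genes tested were higher and 5.45% lower at an unadjusted p under 0.05.

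No immediate early gene was called in limma. Of 24 tested, 8 were higher and 1 lower at an unadjusted p under 0.05, 19 lay above 0, and the median was 0.26 (0.14 to 0.35 with single hearts left out). Over all genes tested, 5.11% were higher and 5.45% lower at that level, and 4061 of 8237 lay above 0. Nr4a1, an immediate early nuclear receptor, had 7.74, 8.65, 7.47, 7.24 and 7.69 in DHA oil hearts, against 6.36, 6.80, 7.06 and 5.30 in trilinolenin hearts and 8.23, 8.63 and 8.68 in controls. Its oil groups did not overlap, 8 of the 9 lay below every control, and the difference was 1.37 ± 0.42 (limma, adjusted p = 0.139). Nppb, the natriuretic peptide of stressed heart muscle, had 10.32, 10.38, 9.57, 10.08 and 10.91 in DHA oil hearts, against 8.60, 9.36, 9.24 and 9.51 in trilinolenin hearts and 10.39, 10.20 and 10.82 in controls. These groups did not overlap, and the difference was 1.07 ± 0.33 (adjusted p = 0.139). Atf3, chosen after its values were seen, differed by 1.24 ± 0.44 (adjusted p = 0.249) without overlap. It is also on the list of 15 genes of amino acid and integrated stress response, where 5 were higher and 1 lower at an unadjusted p under 0.05 and 0 were called.

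**Figure D3:**
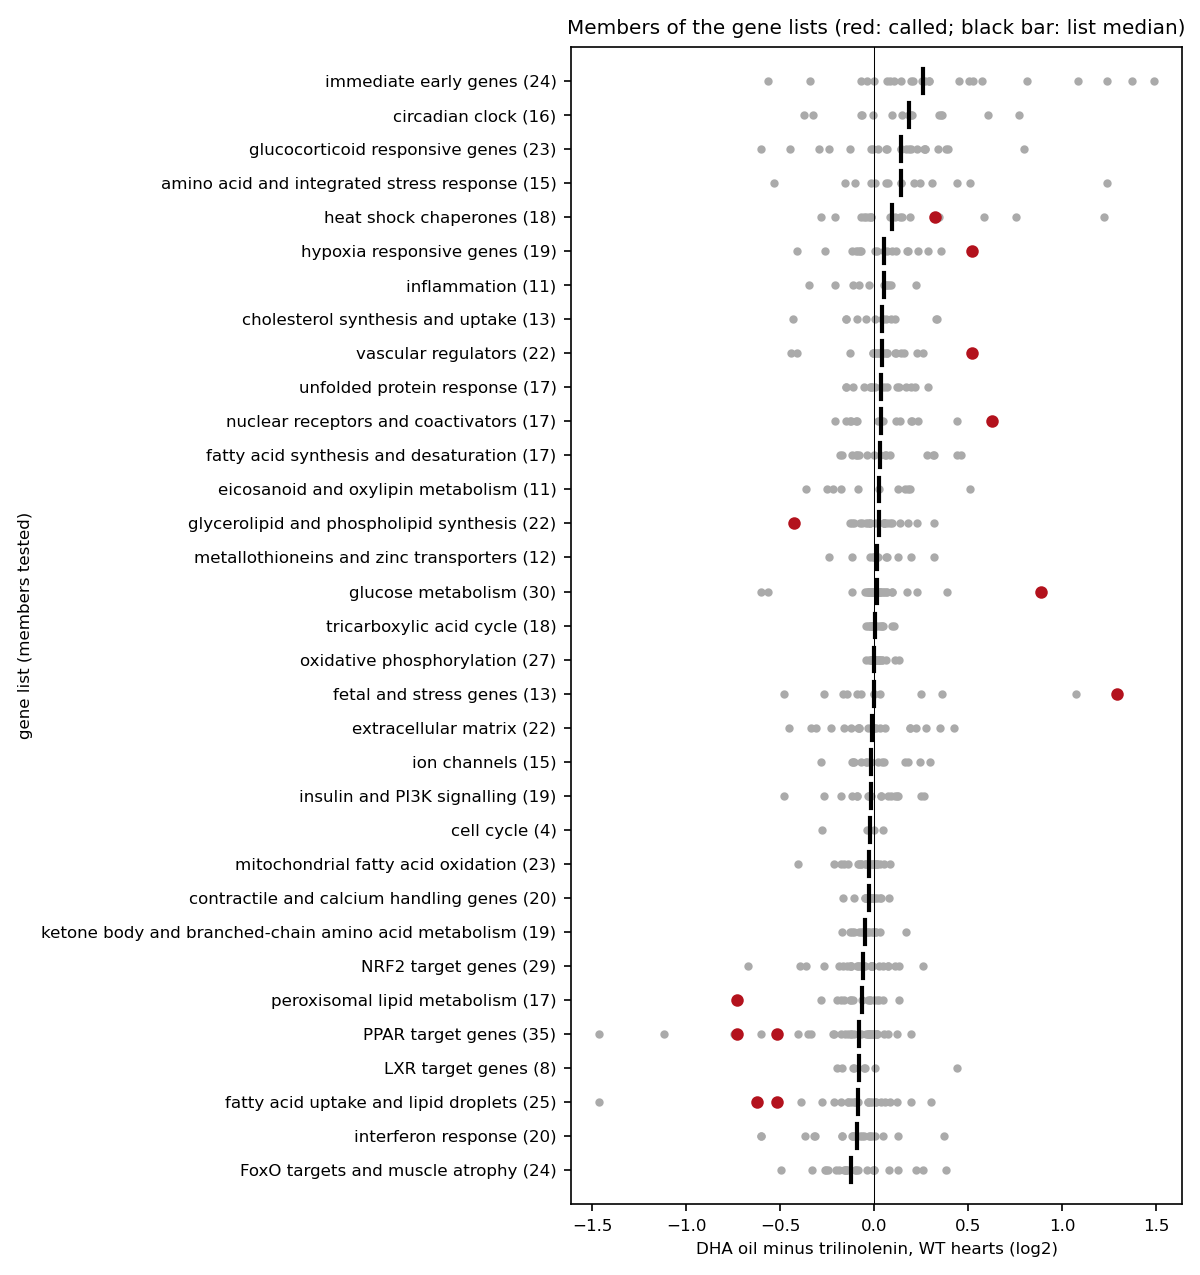
Log2 difference between DHA oil and trilinolenin hearts (horizontal axis) for the tested members of 33 gene lists (vertical axis, with the number of members tested), called genes in red, other genes in grey and list medians as black bars. The median is 0.26 for the immediate early list and -0.12 for the FoxO and atrophy list, and the second of these is -0.02 without DHA oil replicate 4.

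Each oil was also set beside the controls, where limma called 153 genes for DHA oil (1.86%) and 281 for trilinolenin (3.41%). These 2 comparisons share the 3 control hearts, and the DHA oil count was 12 and 0 without control replicates 1 and 2 and 33, 250 and 10 without DHA oil replicates 3, 4 and 5, while that of trilinolenin was 46 to 205 with single hearts left out. Values of single genes are therefore given side by side only. For 34 of the 46 genes (73.9%) the control mean was nearer to DHA oil than to trilinolenin, against 53.7% of all genes tested. Of the 46, 19 were called between trilinolenin and control and 2 between DHA oil and control. For Hsd17b11 the DHA oil mean differed from control by -0.01 ± 0.11 and the trilinolenin mean by 0.62 ± 0.12. For Perm1 the values were -0.22 ± 0.10 with DHA oil and -0.77 ± 0.10 with trilinolenin, and for Ppp1r3c 0.02 ± 0.14 with DHA oil and -0.68 ± 0.15 with trilinolenin. For Frmd5 they were 0.33 ± 0.21 with DHA oil and -0.87 ± 0.22 with trilinolenin, and for Plin2 0.03 ± 0.14 with DHA oil and 0.55 ± 0.14 with trilinolenin. For Tmem144 they were 0.54 ± 0.15 with DHA oil and -0.10 ± 0.16 with trilinolenin, so here the DHA oil hearts were the ones away from control. Ehhadh had the oils on opposite sides of control, -0.38 ± 0.19 with DHA oil and 0.35 ± 0.19 with trilinolenin.

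Hearts given the other agents took no side in the difference that chose the 46 genes, but they entered the choice of probe sets, the brightness filter and the estimate of spread. After trilinolein (5 hearts), the triglyceride of an acid with 18 carbons and 2 double bonds, the group mean was nearer to trilinolenin than to DHA oil for 40 of the 46 genes (87.0%), against 55.5% of all genes tested. After triolein (4 hearts), with 1 double bond in each chain, the mean was nearer to trilinolenin for 17 genes (37.0%), against 45.2% of all genes. After Wy14643 (4 hearts) it was nearer to DHA oil for all 24 higher genes and for 14 of the 22 lower genes (63.6%), against 62.0% of all genes. Hsd17b11, Plin2, Gpam and Ehhadh were among the 8 lower genes nearer to trilinolenin after Wy14643, with means of 9.39, 9.04, 11.45 and 5.87. So were Ttc30b and B4galt6, with means of 7.26 and 7.01.

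**Figure D4:**
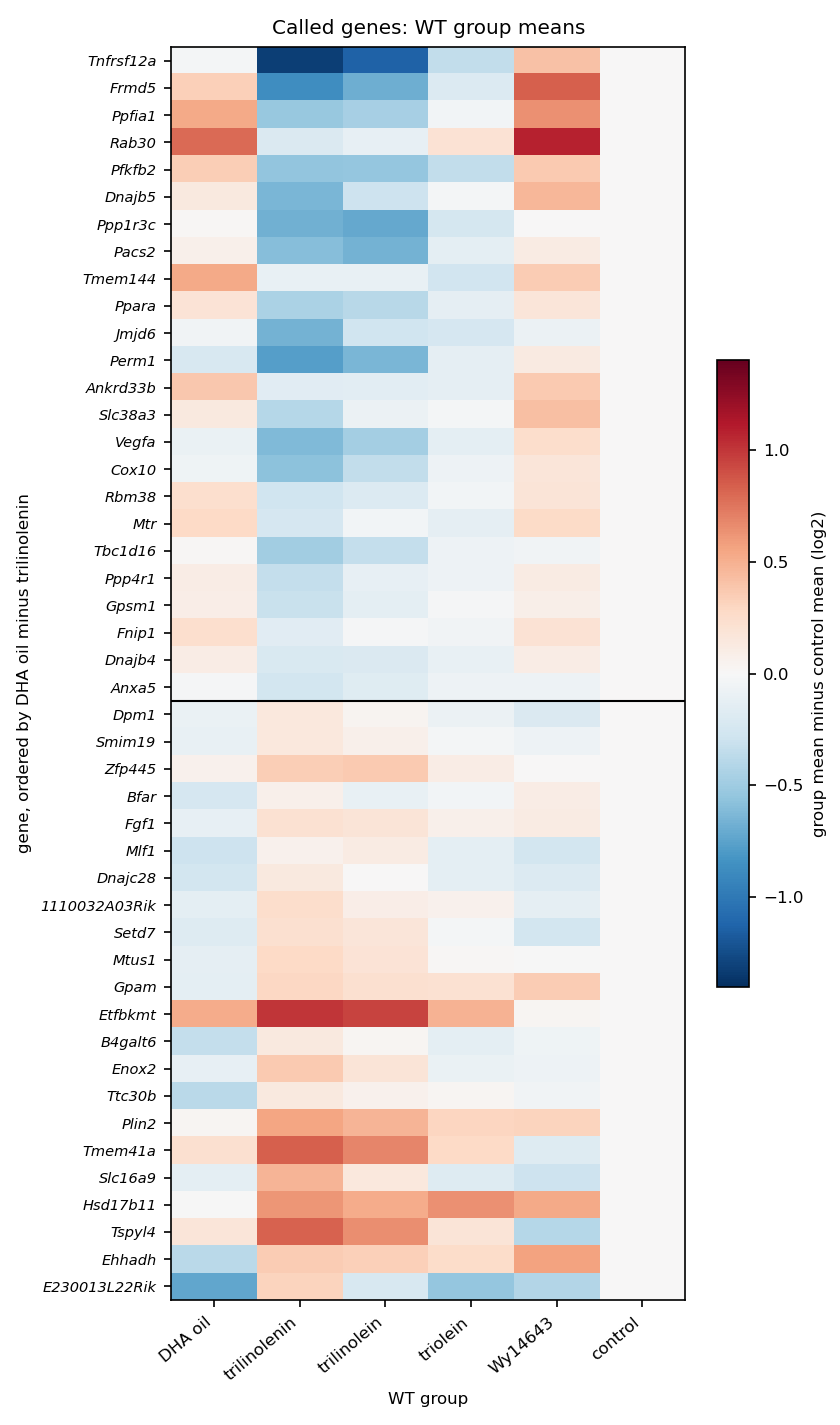
Mean log2 signal of each WT group minus the control mean (colour, from blue for lower to red for higher) for the 46 called genes, ordered by the difference between DHA oil and trilinolenin (vertical axis), in 6 WT groups (horizontal axis). The columns of trilinolenin and trilinolein share their colours for most genes, and the black line separates the 24 higher from the 22 lower genes.

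The same pair of oils was compared in KO hearts. These share no array with the WT difference, but both comparisons used 1 estimate of spread per gene from all 55 arrays. The probe set of Ppara still gave 7.08, 7.49, 6.93, 7.49 and 7.38 in KO hearts after DHA oil, against 7.18, 7.58, 7.08, 7.29 and 7.06 in KO hearts after trilinolenin. All of these lay above the brightness minimum, and since the place of the probes relative to the disrupted part of Ppara is not given, this signal checks neither the genotype nor its labels. In KO hearts 27 genes were called (0.328%) by limma, 19 higher and 8 lower after DHA oil (13 and 9 after a second quantile normalization), and 878 (10.7%) had an unadjusted p under 0.05. That count fell to 0 in a fit of the 30 KO arrays, with array weights, or without KO DHA oil replicate 1, to 8, 1, 14 and 18 without KO trilinolenin replicates 2, 3, 5 and 1 and to 10 without KO DHA oil replicate 3, and was 44, 47 and 55 without KO DHA oil replicates 2, 4 and 5. Of the 46 genes called in WT hearts, 41 had the same sign in KO hearts, where 60.1% of all genes tested did so. At an unadjusted p under 0.05, 24 of the 46 differed in the same direction in KO hearts, and 4 were called there (Ppp1r3c, Perm1, Enox2 and Dpm1, the last named here because the count is small). With a shared spread, the KO p-values of these genes are not independent of their choice in WT hearts. Across all 8237 genes the correlation of the WT and KO differences was 0.346, a description over genes that are not independent.

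The KO difference was smaller than the WT difference for all 46 genes, which were chosen for their size in WT hearts. Ppp1r3c differed by 0.70 ± 0.13 in WT hearts and 0.51 ± 0.12 in KO hearts, and Perm1 by 0.55 ± 0.09 in WT hearts and 0.38 ± 0.09 in KO hearts. Tnfrsf12a was close in both, at 1.29 ± 0.30 in WT hearts and 1.12 ± 0.28 in KO hearts. Hsd17b11, Ehhadh, Plin2 and Ppara stood near 0 in KO hearts. So did others of the 46, such as Fnip1 (0.01 ± 0.08) and Smim19 (-0.03 ± 0.05), chosen after their values were seen. Hsd17b11 differed by -0.62 ± 0.11 in WT hearts and 0.02 ± 0.10 in KO hearts, Ehhadh by -0.73 ± 0.17 in WT hearts and -0.01 ± 0.16 in KO hearts, and Plin2 by -0.52 ± 0.13 in WT hearts and 0.06 ± 0.12 in KO hearts. For Ehhadh the KO means were 4.63 after DHA oil and 4.64 after trilinolenin. Both lay only just above the brightness minimum, so the KO difference of Ehhadh rests on dim signal. Ppara differed by 0.63 ± 0.12 in WT hearts and 0.03 ± 0.11 in KO hearts, which lack the intact gene. Gpam lay between, at -0.43 ± 0.08 in WT hearts and -0.22 ± 0.07 in KO hearts. Acot1, not called in either genotype, differed by -0.75 ± 0.32 in WT hearts and 0.61 ± 0.30 in KO hearts. The KO mean of Acot1 after trilinolenin, 4.20, lay below the brightness minimum, against 4.81 after DHA oil. The opposite sign of Acot1 in KO hearts therefore rests on dim signal. Hmox1 differed by -0.17 ± 0.60 in WT hearts and -1.99 ± 0.56 in KO hearts (adjusted p = 0.094 in KO hearts).

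The difference between the genotypes was tested itself, and 0 genes were called (limma, lowest adjusted p = 0.284), while 401 (4.87%) had an unadjusted p under 0.05. Hsd17b11 had that lowest value, with a WT minus KO difference of -0.64 ± 0.14. The values were 0.60 ± 0.16 for Ppara (adjusted p = 0.578), 0.93 ± 0.27 for Frmd5 (adjusted p = 0.853) and -0.58 ± 0.17 for Plin2 (adjusted p = 0.9). A difference between the genotypes in the response to the 2 oils was therefore not detectable for single genes with these arrays. Genotype and substrain differ together here, and their parts in any such difference cannot be told apart. The median over the 35 PPAR target genes was -0.08 in WT hearts and 0.05 in KO hearts.

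**Figure D5:**
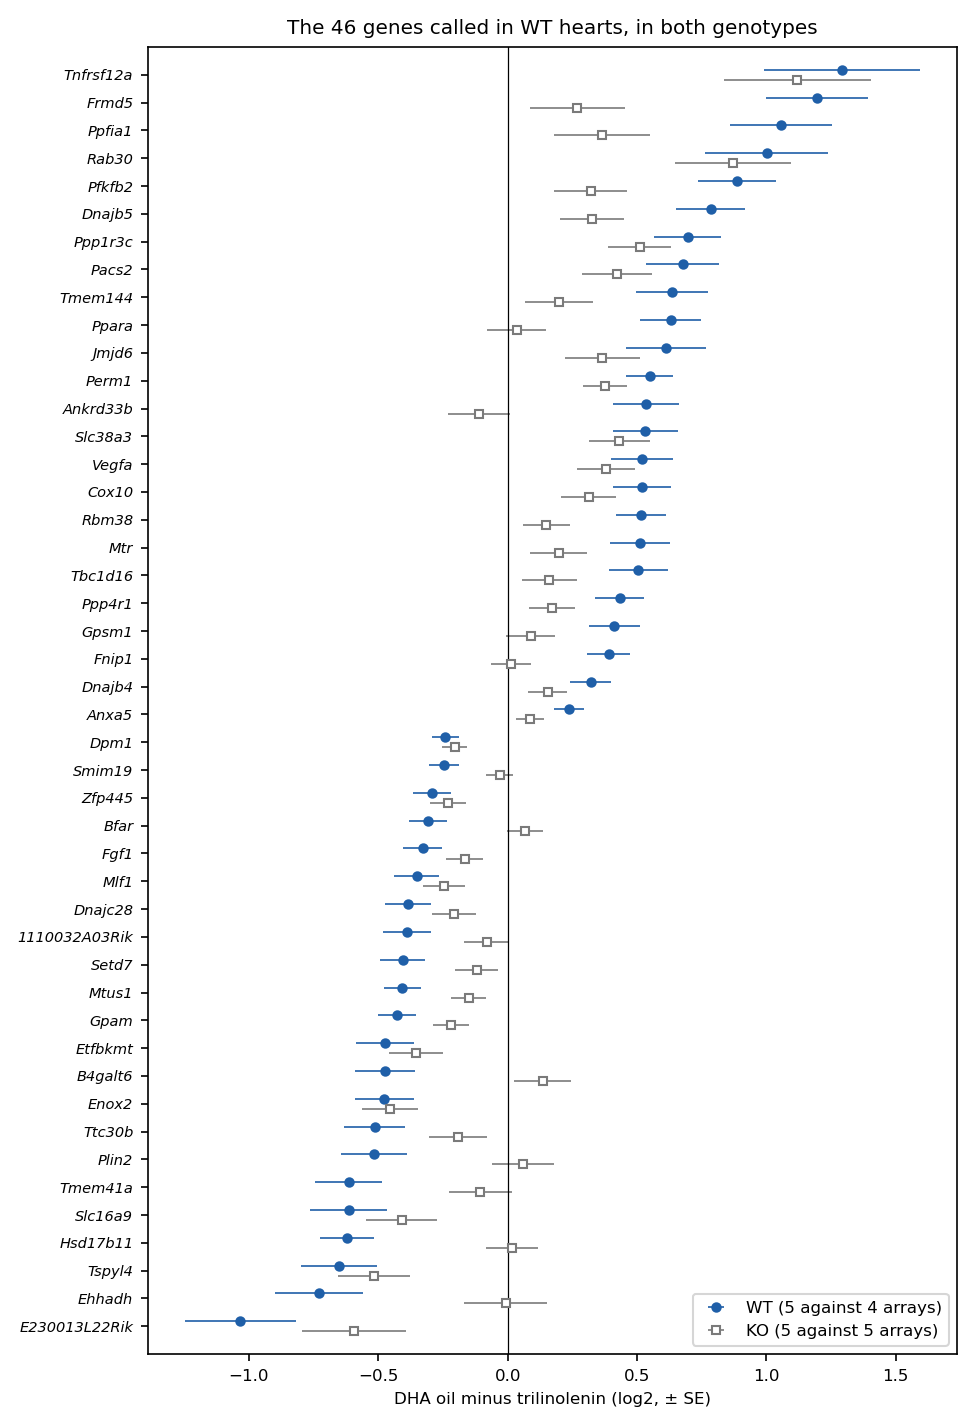
Log2 difference between DHA oil and trilinolenin hearts with its SE (horizontal axis) for the 46 genes called in WT hearts (vertical axis), filled circles for WT and open squares for KO. The KO values lie on the same side of 0 for 41 genes and nearer to 0 for all 46.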

How the data were processed

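Values were the log2 signals of probe sets in the table deposited by the authors. Per the submitters' processing notes, GCRMA 2.2.0 made them. That method removes background by probe sequence, applies quantile normalization and combines the probes of a set. Any later step is not stated in those notes. No scanner files were used, and the number of arrays limits the precision. Of 45101 probe sets, 34958 carried 1 gene symbol, 932 several and 9211 none, per the platform annotation, and 34754 of those with 1 symbol were found by Entrez identifier in the gene table, with 0 symbols changed. Each of 18193 genes was taken as its probe set of highest mean over the 55 arrays, and 8237 genes above 20 (linear) in at least 3 arrays were tested.

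The model in limma 3.58.1 (R 4.3.3) gave each of the 12 groups its own mean, with moderated variances (43 residual and 3.25 prior degrees of freedom). Benjamini-Hochberg adjustment ran over all genes tested, and called means an adjusted p under 0.05. The fit was tested on simulated data. Groups followed the titles and no batch is named in the labels. Marker lists were compared by exact permutation in Python 3.11.15. Gene lists were described by counts and medians, without a test.

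The members, lists and named genes were chosen with earlier results of these data known. The text names the 12 largest called rises and falls (clone names left out), up to 4 called members of each list, 16 index genes and up to 5 called genes in each direction of the genotype difference. 1 index gene is not reported here. The alternatives were 2 filters, the mean of all probe sets, a second quantile normalization, array weights, a trended and robust prior, a replicate block, fits of fewer arrays, and each heart left out.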

Additional observations from a re-analysis of the deposited data

Results flagged for a closer look

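Single hearts were set against their group for 39 named genes and 7 marker lists in the DHA oil and trilinolenin groups. Dixon's limit at the 95% level was passed in 2 of 92 such groups, where chance gives about 1 in 20. Hmox1 was at 5.06 in WT DHA oil replicate 4, and the other 4 DHA oil hearts lay between 8.67 and 9.11. The mean of 3 pericyte markers was 9.21 in WT DHA oil replicate 5, and the other 4 hearts lay between 9.46 and 9.56. Without DHA oil replicate 4 the Hmox1 difference between the oils was 0.60 in place of -0.17, and it was called in neither case.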

How the results depend on the processing

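Of 68 alternatives of the 4 counts above 0, 34 stayed within 1.5 times the reported count and 34 did not. For DHA oil minus trilinolenin in WT hearts the count was 0 in a fit of the 9 arrays alone, was 34 (23 higher, 11 lower, 23 shared) in a fit of the 25 WT arrays, and ranged from 13 to 59 with single hearts left out. In KO hearts it was 6 without a filter, and 0 with array weights (748 genes at an unadjusted p under 0.05), in a fit of the 10 arrays (579) or of the 30 KO arrays (827), and it ranged from 0 to 55 with single hearts left out. A second quantile normalization gave 13 higher and 9 lower KO calls in place of 19 and 8. The count for the difference between genotypes was 0 in all alternatives. For DHA oil minus control in WT hearts 153 genes were called, with 56 without a filter, 411 with array weights, 98 with the replicate block and 0 to 250 with single hearts left out. For trilinolenin minus control 281 were called, with 180 without a filter, 477 with array weights and 46 to 205 with single hearts left out. Of 1050 alternatives for single genes, 277 lost a call, 8 gained one and 0 changed sign past the threshold. List medians moved beyond the spread between replicates in 2 of 360. The marker lists could not pass singly in any setting, so their p-values say nothing about stability. The cause of these shifts was not tested. With the replicate block 53 genes were called in WT hearts, all 46 of the reported ones among them, and 36 in KO hearts. Same-numbered hearts of the 2 oils had correlated deviations of -0.06 to 0.08 in WT hearts (0 of 4 best with their own number) and -0.04 to 0.37 in KO hearts (3 of 5), so the numbers were not taken as pairs.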

Other observations

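No clock gene and no gene of the unfolded protein, interferon or integrated stress response was called between the oils in limma. Of 16 tested clock genes, 4 were higher and 0 lower after DHA oil at an unadjusted p under 0.05, with a median of 0.19 in WT hearts and -0.12 in KO hearts. Clock, a core activator of the rhythm, averaged 6.74 in DHA oil hearts and 6.38 in trilinolenin hearts without overlap, a difference of 0.36 ± 0.11 (adjusted p = 0.13). Of 17 genes of the unfolded protein response 3 were higher and 0 lower at that level, with a median of 0.04. Atf4, the main transcription factor of the integrated stress response, averaged 8.53 in DHA oil hearts and 8.02 in trilinolenin hearts, a difference of 0.51 ± 0.14 (adjusted p = 0.0748). Of 20 interferon response genes 0 were higher and 1 lower, which was Iigp1, an interferon-induced GTPase, at 9.03 in DHA oil hearts and 9.63 in trilinolenin hearts (-0.60 ± 0.15, adjusted p = 0.0501). Clock, Atf4 and Iigp1 were chosen after their values were seen. Beside these lists, 5.11% of all genes tested were higher and 5.45% lower at an unadjusted p under 0.05.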
